A study of Homo sapiens with 9 samples.

Results

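The aminoacyl-tRNA synthetases described here are 37 genes, taken by symbol from the 19569 genes of the count table, with former symbols lacking the final 1 also accepted. All 37 were found, and all 37 were among the 12036 genes that passed the filter on low counts. Cytosolic enzymes or their subunits account for 19 of them, mitochondrial enzymes, whose symbols end in 2, for 16, and AIMP1 and AIMP2, non-catalytic scaffold proteins of the cytosolic multisynthetase complex, for 2. The rule uses names alone and no measured value.

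mRNA was sequenced from Jurkat Clone E6-1, an established line of human leukaemic T lymphoblasts that is a single clone. Non-activated cells (0 h) were the control, and the other cells were activated for 5 h or 12 h by anti-CD3 antibody bound to the plate (coated at 10 µg/mL) together with soluble anti-CD28 antibody (5 µg/mL). Each of the 3 groups had 3 libraries, which the labels call biological replicates without naming their cultures. The p-values therefore reflect only how far these libraries scatter, and that scatter may be technical. Non-activated cells held for 5 h or 12 h were not among the samples used here, so activation and time in culture cannot be told apart. In bulk RNA, a change in the number of cells that make a transcript and a change of RNA per cell cannot be told apart either.

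Aminoacyl-tRNA synthetases join each amino acid to its tRNA, the step that sets the meaning of a codon. Human cells make most of them as separate nuclear genes, a cytosolic enzyme that serves the cytoplasmic ribosome and a mitochondrial enzyme that is imported to serve the ribosome of the organelle. Several cytosolic enzymes sit together in the multisynthetase complex. Many cytosolic synthetase genes are known targets of ATF4, the transcription factor of the response to amino-acid shortage, which binds C/EBP-ATF composite elements. T cells are known to raise protein synthesis and amino-acid uptake when their antigen receptor is engaged.

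Library totals ran from 4222258 to 9359187 counts. Replicates of a group differed by more than sampling noise, with a chi-square over degrees of freedom of 2.87 to 8.92, so each library counted as 1 replicate. All 10 T-cell markers examined were above 1 CPM (counts scaled to the size of the library) in every library, with a summed level of 6855 to 8280 CPM. The 5 myeloid markers summed to 1.22 to 3.01 CPM, and the 3 epithelial markers were at 0 in every library. Of 4 B-cell markers, 1 was above 1 CPM in every library, and the summed level was 162 to 203 CPM at 0 h, 89.6 to 119 CPM at 5 h and 130 to 155 CPM at 12 h. Of 3 NK-cell markers, 1 was above 1 CPM in every library, and their sum was 4.63 to 5.50 CPM at 0 h, 8.78 to 15.98 CPM at 5 h and 10.03 to 11.5 CPM at 12 h. Of 3 fibroblast markers, 1 was above 1 CPM in every library, COL1A2 was at 0, and the sum was 1.20 to 2.96 CPM. The 3 erythroid markers summed to at most 0.256 CPM, with HBB at 0. The part of the B-cell and NK-cell marker differences in the results below was not tested. All 5 activation genes examined (CD69, IL2, IL2RA, EGR1 and NR4A1) were higher at both times than at 0 h.

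The windows around the transcription start sites of these genes were searched for the binding motifs of known regulators. RefSeq promoter windows (GRCh38.p14, 250 bases before to 50 bases after each start) were at hand for 32 of the 37 genes, namely 16 cytosolic, 14 mitochondrial and both scaffold genes, some with more than 1 start. LARS1, YARS1, VARS1, VARS2 and AARS2 had no entry. The strict C/EBP-ATF element TTGCATCA, searched on both strands, lay in 0.866% of all 35116 windows of that length. It lay in 6 of the 21 windows of cytosolic genes and in 0 of the 18 windows of mitochondrial genes. By gene, it was found in 6 of the 16 cytosolic genes and 0 of the 14 mitochondrial genes. The 6 genes were AARS1, CARS1, IARS1, MARS1, NARS1 and TARS1. The looser form TGATGNAA, whose other strand contains the strict form, lay in 3.62% of all windows, in 7 of 21 cytosolic windows and in 1 of 18 mitochondrial windows. It added GARS1 among the cytosolic genes and YARS2 among the mitochondrial ones. The stretches below show these matches because they are shared by cytosolic members. Each is written 5′ to 3′ on the strand of its gene, with the match in capitals.
AARS1: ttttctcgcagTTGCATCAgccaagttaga
CARS1: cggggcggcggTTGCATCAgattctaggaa
IARS1: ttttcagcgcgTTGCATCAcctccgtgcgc
MARS1: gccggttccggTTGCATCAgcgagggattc
NARS1: tctacgctctcTGATGCAAcgccggaatcg
TARS1: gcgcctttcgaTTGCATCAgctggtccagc
GARS1: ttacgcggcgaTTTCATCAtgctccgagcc
The AARS1 stretch is at chr16:70289675-70289704, minus strand, and its match begins 187 bases before the start site. In the other 6 genes the match begins between 33 bases before and 14 bases after the start. CARS1 lies at chr11:3057407-3057436, minus strand, IARS1 at chr9:92293692-92293721, minus strand, and MARS1 at chr12:57488053-57488082, plus strand. The NARS1 stretch is at chr18:57621804-57621833, minus strand, that of TARS1 at chr5:33440956-33440985, plus strand, and that of GARS1 at chr7:30594834-30594863, plus strand. In NARS1 the match reads in the reverse orientation. A match is a description of the letters and not evidence of binding.

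The mitochondrial windows held other motifs. The E-box CACGTG, the site that MYC and related factors are known to bind, lay in 7.26% of all windows. It lay in 4 of 18 mitochondrial windows (CARS2, EARS2 and MARS2), where the same EARS2 site counts more than once. It also lay in 1 of 21 cytosolic windows (IARS1) and in AIMP2. The NRF1 core GCGCATGC, named for nuclear respiratory factor 1, lay in 3.05% of all windows. It lay in 2 of 18 mitochondrial windows (MARS2 and YARS2), and in 0 of the 21 windows of the 16 cytosolic genes. MARS2, whose mRNA differed most between 5 h and 12 h among the 37 genes, held both motifs, and they are shown for that reason. A relation of these motifs to that difference was not tested.
MARS2: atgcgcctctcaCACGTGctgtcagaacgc
MARS2: gcgacccggctGCGCATGCgcctctcacac
These overlapping stretches are at chr2:197705346-197705375, plus strand, and at chr2:197705331-197705360, plus strand. The first shows the E-box in capitals and the second the NRF1 core.

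In non-activated cells the cytosolic genes were the more abundant class per length. The median level over the 19 cytosolic genes was 29.1 CPM per kb of exon, and over the 16 mitochondrial genes 8.85 CPM per kb, a ratio of 3.28. KARS1, the lysine enzyme, which is known to serve both compartments, was highest at 60.9 ± 3.58 CPM per kb (SD, n = 3). IARS2, the mitochondrial isoleucine enzyme, followed at 53.3 ± 2.39 CPM per kb, close to FARSA at 52.5 ± 3.28 CPM per kb and IARS1 at 48.5 ± 2.87 CPM per kb. The levels of IARS2, FARSA and IARS1 differed by less than the sum of their SDs. Their order depends on the length used. With the longest transcript of each gene as its length, KARS1 was still highest, and IARS1 at 77.1 CPM per kb and QARS1, the glutamine enzyme, at 69.8 CPM per kb stood above IARS2 at 62.3 CPM per kb. At the other end, per kb of exon, WARS2 at 2.06 ± 0.626 CPM per kb, FARS2 at 2.28 ± 0.295 CPM per kb and PARS2 at 2.85 ± 0.514 CPM per kb could not be ordered beyond their SDs. CARS1 was the lowest cytosolic gene at 4.24 ± 0.442 CPM per kb. With the longest transcript as length, the class medians were 49.3 and 11.3 CPM per kb, a ratio of 4.37.

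**Figure D1:**
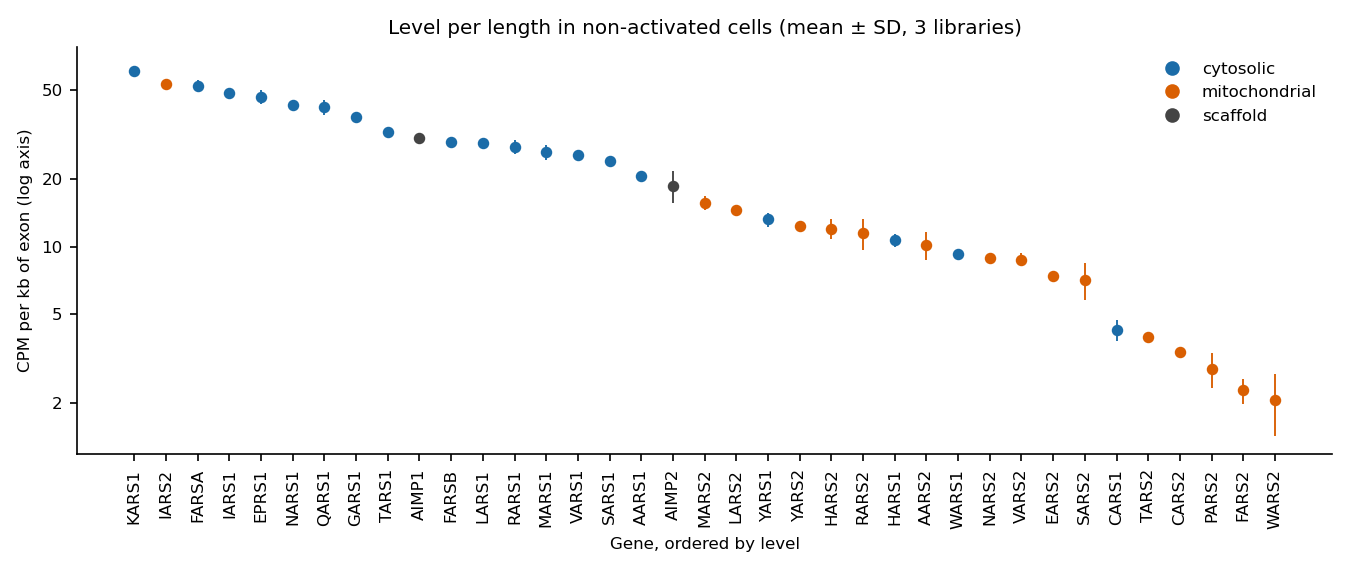
mRNA level in non-activated cells for each of the 37 genes, in CPM per kb of exon on a log axis, with the mean (points) ± SD (bars) of 3 libraries, ordered by level and coloured by class. KARS1 at 60.9 CPM per kb is highest and WARS2 at 2.06 CPM per kb is among the lowest, and IARS2 at 53.3 CPM per kb is the highest mitochondrial gene.

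At 5 h, 10 of the 19 cytosolic genes rose and 1 fell against 0 h, and 7 of the 16 mitochondrial genes rose and 1 fell. Over all genes tested, 24.9% were called higher and 24.8% lower at 5 h. At 12 h, 10 cytosolic genes rose and 1 fell, while 6 mitochondrial genes rose and 4 fell, and AIMP2 fell, beside 26.3% of all genes called higher and 24.8% lower. Rises and falls are those with an adjusted p below 0.05 in edgeR's quasi-likelihood test (Benjamini-Hochberg, over all genes tested). The share that rose was above the share over all genes in both classes at both times (no test was made), and mitochondrial genes at 12 h fell in about the same share as all genes. The median log2 fold change at 5 h was 0.41 over the cytosolic genes and 0.24 over the mitochondrial genes, beside 0.001 over all genes. At 12 h these medians were 0.27, 0.25 and -0.0007. Both comparisons use the same 0 h libraries, so their values are given side by side and are not independent. When library totals alone set the scale, the median of all genes moved to -0.12 at 5 h and -0.11 at 12 h, and the mitochondrial genes that rose numbered 4 at 5 h and 2 at 12 h. All genes called higher then numbered 2200 at 5 h and 2485 at 12 h of 12036, so the mitochondrial share at 12 h was below that of all genes on that scale. On that scale MARS2, RARS2 and TARS2 lost their calls at 5 h, and EARS2, GARS1, HARS2, IARS1, NARS2 and VARS2 theirs at 12 h. IARS2, LARS2 and QARS1 were then called lower at 5 h, and RARS1 at 12 h, beside 3899 of 12036 genes lower at each time.

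Between 5 h and 12 h, 3 cytosolic genes rose and 5 fell, 1 mitochondrial gene rose and 4 fell, and the scaffold gene AIMP2 fell, beside 18.1% of all genes higher and 18.0% lower. The counts of this comparison depend on single libraries. Without 5 h replicate 1, 7 of the 14 calls remained, and without 12 h replicate 2, 8 remained. Without 5 h replicate 3, 9 remained. For 12 h against 0 h, 15 of 22 calls remained without 0 h replicate 3, and mitochondrial genes called higher and lower then numbered 3 and 2. Every called member kept its sign under each alternative run.

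**Figure D2:**
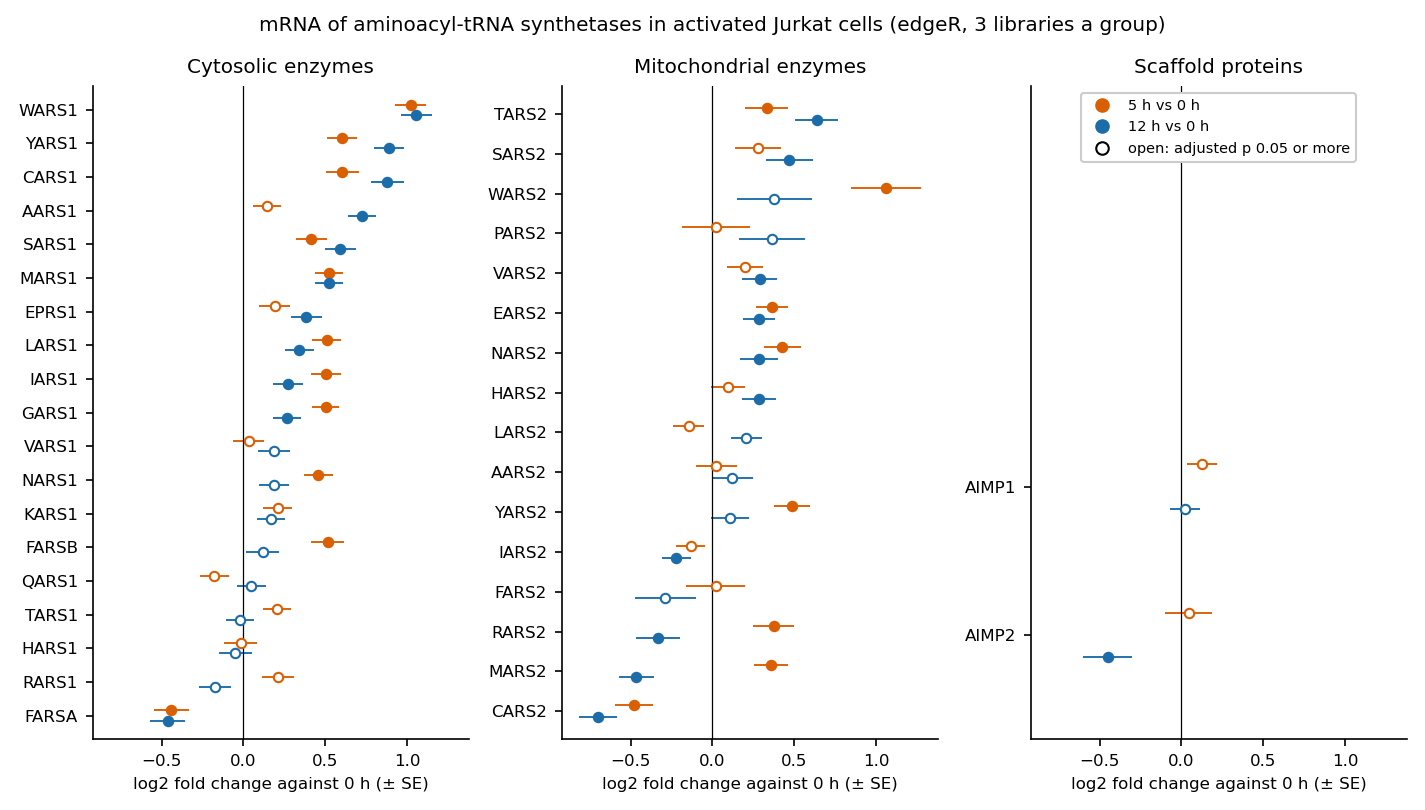
log2 fold change against 0 h (± SE, edgeR) of each of the 37 genes at 5 h (orange) and 12 h (blue), in 1 panel per class and ordered by the value at 12 h; open points have an adjusted p of 0.05 or more. Most cytosolic genes lie to the right of 0, with WARS1 farthest at both times, and the mitochondrial genes spread to both sides at 12 h.

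The tryptophan, cysteine and tyrosine enzymes had the largest rises among the cytosolic genes at 12 h. WARS1 (chr14:100333788-100376805, minus strand, GRCh38, GENCODE 29), the tryptophan enzyme, which interferon is known to induce, read 59.6, 60.1 and 57.6 CPM at 0 h, 129, 124 and 107 CPM at 5 h and 113, 127 and 128 CPM at 12 h. Every activated library stood above every 0 h library, and the activated groups overlapped. The log2 fold change of WARS1 was 1.02 ± 0.10 (SE), adjusted p = 1.89e-08 in edgeR's quasi-likelihood test, at 5 h, and 1.06 ± 0.10 (SE), adjusted p = 1.37e-08 at 12 h. It was the only cytosolic gene past a 2-fold rise at either time. Leaving out 1 library at a time, its value ran from 0.97 to 1.10 at 5 h and from 1.03 to 1.10 at 12 h. At 5 h it was thus not past 2-fold in every run.

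CARS1 (chr11:3000922-3057613, minus strand), the cysteine enzyme, read 38.4, 42.2 and 47.2 CPM at 0 h, 61.5, 66.5 and 66.4 CPM at 5 h and 76.9, 82.2 and 75.7 CPM at 12 h. Its 3 groups did not overlap and stood in the order of time. The log2 fold change was 0.61 ± 0.10 (SE), adjusted p = 4.66e-05 at 5 h and 0.88 ± 0.10 (SE), adjusted p = 4.12e-07 at 12 h. The difference of 12 h from 5 h was 0.27 ± 0.10 (SE), adjusted p = 0.0344, in edgeR's test, and was no longer called without 5 h replicate 1 (0.24), 5 h replicate 2 (0.30), 5 h replicate 3 (0.29) or 12 h replicate 2 (0.24). YARS1 (chr1:32775237-32818153, minus strand), the tyrosine enzyme, read 117, 106 and 102 CPM at 0 h, 159, 166 and 169.5 CPM at 5 h and 181, 207 and 216 CPM at 12 h. These groups too were separate and in the order of time. YARS1 rose by a log2 value of 0.60 ± 0.09 (SE), adjusted p = 1.59e-05 at 5 h and 0.89 ± 0.09 (SE), adjusted p = 8.62e-08 at 12 h. The further rise from 5 h, 0.29 ± 0.09 (SE), adjusted p = 0.016, lost its call without 5 h replicate 1 (0.26) or 12 h replicate 3 (0.24).

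AARS1 (chr16:70252295-70289543, minus strand), the alanine enzyme, was late. It read 96.5, 91.5 and 91.1 CPM at 0 h, 95.9, 106 and 107 CPM at 5 h and 152, 159.96 and 149.8 CPM at 12 h. The 5 h libraries overlapped those at 0 h, and the 12 h libraries stood above all others. Its log2 fold change was 0.15 ± 0.09 (SE), adjusted p = 0.168 at 5 h, 0.73 ± 0.09 (SE), adjusted p = 5.71e-07 at 12 h, and 0.58 ± 0.08 (SE), adjusted p = 2.72e-05 for 12 h against 5 h. MARS1 (chr12:57475445-57517569, plus strand), the methionine enzyme, a member of the multisynthetase complex, read 184, 172 and 200.2 CPM at 0 h, 269, 271 and 260.2 CPM at 5 h and 267, 283 and 248 CPM at 12 h. All activated libraries exceeded those at 0 h, and the activated groups overlapped. MARS1 rose by 0.52 ± 0.09 (SE), adjusted p = 4.31e-05 at 5 h and by 0.52 ± 0.09 (SE), adjusted p = 4.62e-05 at 12 h.

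**Figure D3:**
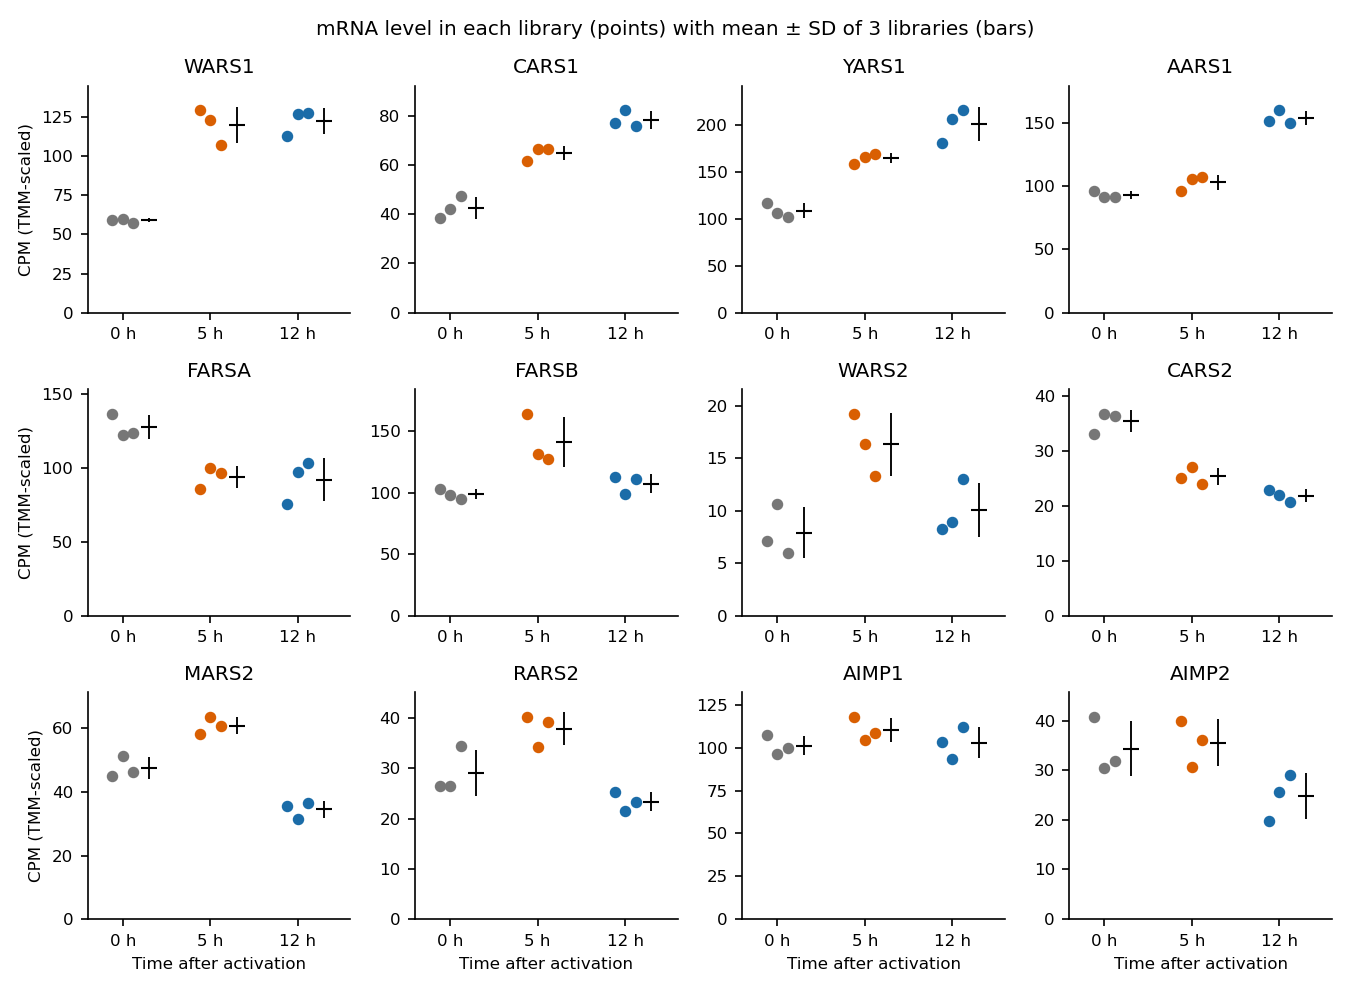
mRNA level in CPM (TMM-scaled) in each library (points) for 12 of the genes at 0 h, 5 h and 12 h, with the mean ± SD of 3 libraries in black; each axis starts at 0. CARS1 and YARS1 climb at each time, CARS2 falls at each time, and FARSB, WARS2, MARS2 and RARS2 are highest at 5 h.

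Other cytosolic genes peaked at 5 h. GARS1 (chr7:30594681-30634033, plus strand), the glycine enzyme, which serves both compartments, read 164, 157 and 149 CPM at 0 h, 230.04, 217 and 220.1 CPM at 5 h and 185, 181 and 199.6 CPM at 12 h. The 3 groups were separate, with the 12 h libraries in between. GARS1 rose by 0.50 ± 0.08 (SE), adjusted p = 4.21e-05 at 5 h and by 0.27 ± 0.08 (SE), adjusted p = 0.0113 at 12 h, and fell from 5 h to 12 h with a log2 difference of -0.24 ± 0.08 (SE), adjusted p = 0.0318. The rise at 12 h was no longer called without 0 h replicate 3 (0.23) or 12 h replicate 3 (0.23). The later fall lost its call without any 1 of the 5 h libraries or 12 h replicate 2, at -0.25 to -0.20, and also with no filter on low counts and with only the 6 libraries compared in the fit. NARS1 (chr18:57600656-57622213, minus strand), the asparagine enzyme, read 180.1, 182 and 165 CPM at 0 h, 255, 228 and 240.02 CPM at 5 h and 189.6, 186 and 223 CPM at 12 h. The 12 h libraries again lay between the other groups without overlap. NARS1 rose by 0.46 ± 0.09 (SE), adjusted p = 0.000301 at 5 h, and its value at 12 h was 0.19 ± 0.09 (SE), adjusted p = 0.0933. The difference of 12 h from 5 h, -0.27 ± 0.09 (SE), adjusted p = 0.0254, lost its call without 5 h replicate 1 (-0.23), 5 h replicate 3 (-0.27), 12 h replicate 1 (-0.24) or 12 h replicate 2 (-0.22).

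The phenylalanine enzyme is built from a catalytic alpha subunit (FARSA) and a beta subunit (FARSB), and their mRNAs moved in opposite directions at 5 h. FARSA (chr19:12922479-12934037, minus strand) read 137, 122 and 124 CPM at 0 h, 85.9, 99.7 and 96.98 CPM at 5 h and 75.7, 97.04 and 103 CPM at 12 h. Every activated library was below every 0 h library. FARSA fell, with a log2 fold change of -0.44 ± 0.10 (SE), adjusted p = 0.00163 at 5 h and -0.46 ± 0.11 (SE), adjusted p = 0.00105 at 12 h, and was the only cytosolic gene called lower than at 0 h. FARSB (chr2:222570536-222656337, minus strand) read 103, 98.2 and 94.5 CPM at 0 h, 164, 131 and 127 CPM at 5 h and 112, 98.6 and 111 CPM at 12 h. Its 5 h libraries stood above all others, and the 12 h libraries overlapped those at 0 h. FARSB rose by 0.52 ± 0.10 (SE), adjusted p = 0.00024 at 5 h, read 0.12 ± 0.10 (SE), adjusted p = 0.343 at 12 h, and fell from 5 h to 12 h with a log2 difference of -0.40 ± 0.10 (SE), adjusted p = 0.00447. Per length, FARSA stood at 52.5 ± 3.28 CPM per kb and FARSB at 29.2 ± 1.21 CPM per kb at 0 h, a ratio of 1.80, or 2.12 with the longest transcript as length. At 5 h the levels per length were 38.7 ± 3.02 and 41.8 ± 5.99 CPM per kb, and at 12 h 37.8 ± 5.96 and 31.8 ± 2.24 CPM per kb.

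Of the other cytosolic genes, IARS1, LARS1 and SARS1, the isoleucine, leucine and serine enzymes, rose at both times. Their log2 fold changes at 5 h were 0.51, 0.51 and 0.41, and at 12 h 0.27, 0.34 and 0.59, with adjusted p from 2.36e-05 to 0.0177 in edgeR. IARS1 at 12 h lost its call without 0 h replicate 2 (0.27), 0 h replicate 3 (0.23) or 12 h replicate 1 (0.20). EPRS1, the fused glutamate and proline enzyme, rose at 12 h, with a log2 fold change of 0.39 ± 0.10 (SE), adjusted p = 0.00206. RARS1 and TARS1, the arginine and threonine enzymes, were not called against 0 h at either time and fell from 5 h to 12 h, with log2 differences of -0.39 (adjusted p = 0.00413) and -0.23 (adjusted p = 0.0454). The TARS1 call was lost without any 1 of the 5 h libraries or without 12 h replicate 1 or 2, at -0.23 to -0.17, and also with library totals alone, no filter, the replicate number as a block, or only the 6 libraries compared.

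KARS1, QARS1, VARS1 and HARS1, the lysine, glutamine, valine and histidine enzymes, were called in no comparison of the fit over all 9 libraries. KARS1 (chr16:75627474-75648643, minus strand) read 263, 245 and 234 CPM at 0 h, 301, 279 and 279 CPM at 5 h and 261, 272 and 302 CPM at 12 h. Its 5 h libraries lay above those at 0 h, and its 12 h libraries overlapped them. The log2 fold change of KARS1 was 0.21 ± 0.09 (SE), adjusted p = 0.0512 at 5 h and 0.17 ± 0.09 (SE), adjusted p = 0.111 at 12 h. At 5 h, it was called without 0 h replicate 1 (0.25), and also by DESeq2, by limma on the deposited log2 values and in a fit of only the 6 libraries compared (0.21 in each). Those 3 alternatives also called TARS1 at 5 h, and the last also EPRS1. QARS1 had values of -0.18 and 0.05, and VARS1 of 0.03 and 0.19. From 5 h to 12 h QARS1 differed by 0.23 ± 0.09 (SE), adjusted p = 0.0514 in edgeR, with every 12 h library above those at 5 h. That difference was called by DESeq2, with library totals alone and without 12 h replicate 3. Leaving out GARS1 and KARS1, which serve both compartments, the cytosolic median stayed at 0.41 at 5 h and 0.27 at 12 h.

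WARS2 (chr1:119031216-119140671, minus strand), the mitochondrial tryptophan enzyme, was the only mitochondrial gene past a 2-fold rise. It read 7.16, 10.6 and 5.98 CPM at 0 h, 19.2, 16.4 and 13.3 CPM at 5 h and 8.30, 8.94 and 13.03 CPM at 12 h. The 5 h libraries were above all those at 0 h, and the 12 h libraries overlapped those at 0 h. WARS2 rose by a log2 value of 1.06 ± 0.21 (SE), adjusted p = 0.000361 at 5 h, read 0.38 ± 0.23 (SE), adjusted p = 0.173 at 12 h, and fell from 5 h to 12 h with a log2 difference of -0.68 ± 0.21 (SE), adjusted p = 0.0166. Its counts were low, with a minimum of 34 in a library. Leaving out 1 library at a time, its rise at 5 h ran from 0.89 to 1.30, so it was not past 2-fold in every run. The later fall was not called without 5 h replicate 1 (-0.55) or 12 h replicate 2 (-0.57), and the 12 h value was called higher without 0 h replicate 2 (0.63).

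MARS2 and RARS2 crossed from above to below the level of non-activated cells. MARS2 (chr2:197705369-197708387, plus strand), the mitochondrial methionine enzyme, read 44.9, 51.4 and 46.2 CPM at 0 h, 58.2, 63.7 and 60.6 CPM at 5 h and 35.6, 31.4 and 36.6 CPM at 12 h. The groups did not overlap, with 5 h highest and 12 h lowest. The log2 fold change was 0.36 ± 0.10 (SE), adjusted p = 0.0063 at 5 h and -0.47 ± 0.11 (SE), adjusted p = 0.00117 at 12 h, and 12 h differed from 5 h by -0.82 ± 0.11 (SE), adjusted p = 6.72e-06. With library totals alone as the scale, the rise at 5 h was 0.24 and not called. RARS2 (chr6:87514378-87590003, minus strand), the mitochondrial arginine enzyme, read 26.6, 26.5 and 34.4 CPM at 0 h, 40.3, 34.2 and 39.3 CPM at 5 h and 25.4, 21.6 and 23.2 CPM at 12 h. The 0 h and 5 h libraries overlapped slightly, and the 12 h libraries were below all others. RARS2 rose by 0.37 ± 0.13 (SE), adjusted p = 0.0185 at 5 h and fell at 12 h, with a log2 fold change of -0.33 ± 0.13 (SE), adjusted p = 0.0424 against 0 h and -0.71 ± 0.13 (SE), adjusted p = 0.000345 against 5 h. Its call at 5 h was lost without 0 h replicate 1 (0.30), 0 h replicate 2 (0.30), 5 h replicate 1 (0.33) or 5 h replicate 3 (0.35), and with library totals alone (0.25). At 12 h against 0 h it was lost without 0 h replicate 3 (-0.19), 12 h replicate 2 (-0.27) or 12 h replicate 3 (-0.33), and also by DESeq2 (-0.33), by limma (-0.31) and with only the 6 libraries compared (-0.34).

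CARS2 (chr13:110641412-110713603, minus strand), the mitochondrial cysteine enzyme, fell at both times. It read 33.1, 36.8 and 36.4 CPM at 0 h, 25.1, 27.03 and 23.97 CPM at 5 h and 22.9, 21.9 and 20.7 CPM at 12 h. The groups were separate, in descending order of time. The log2 fold change was -0.48 ± 0.11 (SE), adjusted p = 0.00158 at 5 h and -0.70 ± 0.12 (SE), adjusted p = 4.62e-05 at 12 h, and the step from 5 h to 12 h, -0.22 ± 0.12 (SE), adjusted p = 0.16, was not called. TARS2 (chr1:150487364-150507609, plus strand), the mitochondrial threonine enzyme, ran the other way, with 15.98, 16.1 and 15.98 CPM at 0 h, 21.7, 20.3 and 18.6 CPM at 5 h and 25.4, 26.8 and 22.5 CPM at 12 h. Its groups were separate and ascending. TARS2 rose by 0.33 ± 0.13 (SE), adjusted p = 0.0405 at 5 h and 0.64 ± 0.13 (SE), adjusted p = 0.000354 at 12 h. The call at 5 h was lost without any 1 of the 0 h libraries or without 5 h replicate 1 or 2, at 0.28 to 0.33, and also by DESeq2 (0.33), by limma (0.33), with no filter (0.33) and with library totals alone (0.21).

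NARS2 (chr11:78435961-78574874, minus strand), the mitochondrial asparagine enzyme, read 29.8, 27.7 and 27.1 CPM at 0 h, 36.99, 37.03 and 39.8 CPM at 5 h and 32.7, 31.9 and 38.2 CPM at 12 h. All activated libraries were above those at 0 h, and the activated groups overlapped. NARS2 rose by 0.43 ± 0.11 (SE), adjusted p = 0.0037 at 5 h and 0.28 ± 0.11 (SE), adjusted p = 0.045 at 12 h. The 12 h call was lost without 0 h replicate 2 (0.27), 0 h replicate 3 (0.25) or 12 h replicate 3 (0.20). It was also lost by DESeq2, by limma, with no filter, with the replicate block and with only the 6 libraries compared (0.28 in each), and with library totals alone (0.18). EARS2, the mitochondrial glutamate enzyme, rose at both times (0.36 and 0.29), and YARS2, the mitochondrial tyrosine enzyme, rose at 5 h (0.49) and fell from 5 h to 12 h (-0.38). The 12 h call of EARS2 was lost without 0 h replicate 2 (0.28) or 12 h replicate 2 (0.24), and the later fall of YARS2 without 5 h replicate 3 (-0.33). 

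SARS2 and VARS2, the mitochondrial serine and valine enzymes, rose at 12 h, with log2 fold changes of 0.47 (adjusted p = 0.00891) and 0.29 (adjusted p = 0.0324). SARS2 lost its call without 0 h replicate 3 (0.36), and VARS2 without 0 h replicate 2 (0.24), 12 h replicate 1 (0.27) or 12 h replicate 2 (0.21). IARS2 fell at 12 h, with a log2 fold change of -0.22 ± 0.09 (SE), adjusted p = 0.0434. That call was lost without any 1 of the 0 h libraries or without 12 h replicate 2 or 3, at -0.24 to -0.17, and also with the replicate block, no filter or only the 6 libraries compared (-0.22 in each). LARS2, the mitochondrial leucine enzyme, was called in 1 comparison, a rise of 0.35 ± 0.10 (SE), adjusted p = 0.0072 from 5 h to 12 h, which was lost without 12 h replicate 2 (0.26). It was also called at 5 h with library totals alone, and at 12 h against 0 h without 12 h replicate 3. AARS2, FARS2 and PARS2, the mitochondrial alanine, phenylalanine and proline enzymes, were called in no comparison, with values against 0 h from -0.29 to 0.36.

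HARS1 and HARS2, the cytosolic and mitochondrial histidine enzymes, are head-to-head neighbours on chromosome 5. Their RefSeq start sites, 140691370 on the minus strand and 140691455 on the plus strand (GRCh38.p14), are 85 bases apart. Their GENCODE 29 models overlap (HARS1 at chr5:140673904-140691862, minus strand; HARS2 at chr5:140691426-140699318, plus strand). Whether strand was used in counting is not given in the sources used here, so reads from the overlap cannot be assigned with certainty. HARS1 read 90.1, 79.97 and 81.8 CPM at 0 h, 75.03, 87.4 and 86.95 CPM at 5 h and 70.04, 87.2 and 84.5 CPM at 12 h. All 3 groups overlapped, and the log2 fold change was -0.01 ± 0.10 (SE), adjusted p = 0.917 at 5 h and -0.05 ± 0.10 (SE), adjusted p = 0.705 at 12 h. HARS2 read 42.4, 50.4 and 42.1 CPM at 0 h, 46.6, 49.3 and 47.8 CPM at 5 h and 52.96, 57.7 and 52.7 CPM at 12 h. Its 12 h libraries were above the rest, with a log2 fold change of 0.28 ± 0.10 (SE), adjusted p = 0.0277, and its 5 h value was 0.09 ± 0.10 (SE), adjusted p = 0.472. The 12 h call of HARS2 was lost without 0 h replicate 1 (0.25), 0 h replicate 3 (0.24) or 12 h replicate 2 (0.24).

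Summed over the class, cytosolic synthetase mRNA was 3050, 2890.3 and 2932 CPM in the 0 h libraries, 3813, 3611 and 3700.5 CPM at 5 h, and 3585, 3605 and 3688 CPM at 12 h. Every activated library was above every 0 h library. The mitochondrial sums were 734, 761 and 779 CPM at 0 h, 795, 807 and 816 CPM at 5 h, and 783, 804 and 741 CPM at 12 h. The 5 h libraries were above those at 0 h, and the 12 h libraries overlapped both. The log2 ratio of the cytosolic to the mitochondrial sum was 1.96 ± 0.08 at 0 h, 2.20 ± 0.05 at 5 h and 2.23 ± 0.08 at 12 h (SD, n = 3 each). No test was run on these sums. IARS2 alone gave 222 of the mean mitochondrial sum of 758 CPM at 0 h, 202 of 806 CPM at 5 h and 191 of 776 CPM at 12 h. The weight of IARS2 in the ratio was not tested. By median log2 fold change the 2 classes were close at 12 h, at 0.27 and 0.25. Leaving out 1 library at a time, the cytosolic median ran from 0.226 to 0.304. The mitochondrial median then ran from 0.162 to 0.234, below its value from all libraries in each run. With the mean of log2(CPM + 1) over each class in place of the sums, the change of the class difference at 5 h was 0.12 rather than 0.24.

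Within the pairs of 1 amino acid, the ratio of the cytosolic to the mitochondrial mRNA moved most for cysteine. At 5 h, 3 of 17 pairs had every ratio above those at 0 h, 2 had every ratio below, and 12 overlapped. At 12 h these counts were 6, 2 and 9. EPRS1 and FARS2 enter more than 1 pair, and no test was made of these counts. The share of separate groups among pairs of other genes was not computed. These counts therefore do not show that synthetase pairs differ from other gene pairs. The CARS1 to CARS2 ratio of CPM was 1.20 at 0 h, 2.56 at 5 h and 3.58 at 12 h, with a log2 ratio of 0.26 ± 0.10, 1.35 ± 0.10 and 1.84 ± 0.08 (SD, n = 3 each). The 3 groups were separate. For methionine (MARS1 and MARS2), the ratio was 3.90 at 0 h, 4.39 at 5 h and 7.71 at 12 h, and for tyrosine (YARS1 and YARS2) 4.10, 4.45 and 7.06. In both pairs the 12 h libraries were above all others and the 5 h libraries overlapped those at 0 h. The isoleucine ratio (IARS1 and IARS2) was 1.62, 2.52 and 2.28, above 0 h in every activated library. For leucine (LARS1 and LARS2) it was 2.37, 3.72 and 2.62, highest in the 5 h libraries. The tryptophan ratio (WARS1 and WARS2) was 7.68, 7.42 and 12.4, and the alanine ratio (AARS1 and AARS2) 2.14, 2.31 and 3.26, and in both pairs the 12 h libraries stood above those at 0 h. Threonine ran the other way, as the TARS1 to TARS2 ratio was 11.6 at 0 h, 10.7 at 5 h and 7.37 at 12 h, lowest in the 12 h libraries. Other pairs also moved down. VARS1 to VARS2 and FARSA to FARS2 were below 0 h in every 5 h library, with log2 differences of -0.17 and -0.45. HARS1 to HARS2 differed from 0 h by -0.34 at 12 h, with overlap. The asparagine pair was among those that changed least, with NARS1 to NARS2 ratios of 6.23, 6.35 and 5.82. Its 12 h libraries were below all others. These ratios are not corrected for length, so only their change over time is described.

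**Figure D4:**
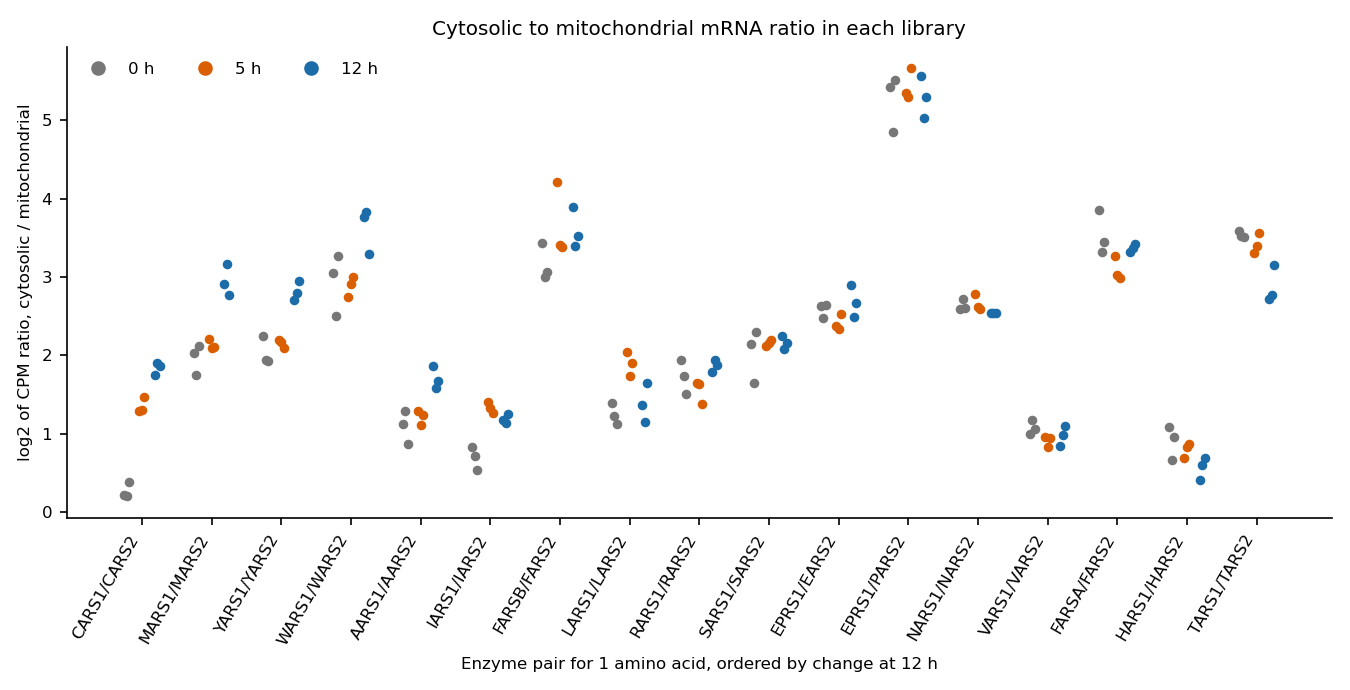
log2 of the CPM ratio of the cytosolic to the mitochondrial mRNA for 17 pairs of genes that serve 1 amino acid, with 1 point per library at 0 h (grey), 5 h (orange) and 12 h (blue), ordered by the change at 12 h. CARS1/CARS2 is at the left with separate groups, and TARS1/TARS2 at the right has its lowest values at 12 h.

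Structural class divides the synthetases by the fold of the catalytic domain. EPRS1, whose fused enzymes are of both classes, is counted in class I here. Of the 10 cytosolic class I genes, 6 rose and 0 fell at 5 h and 7 rose and 0 fell at 12 h, and of the 9 cytosolic class II genes 4 rose and 1 fell at 5 h and 3 rose and 1 fell at 12 h. Of the 9 mitochondrial class I genes, 5 rose and 1 fell at 5 h, and 2 rose and 4 fell at 12 h. In the 7 mitochondrial class II genes, 2 rose at 5 h and 4 at 12 h, and 0 fell. Over all genes the shares were 24.9% higher and 24.8% lower at 5 h and 26.3% and 24.8% at 12 h, and 2 of 7 or 2 of 9 is near these. The 7 cytosolic enzymes of the multisynthetase complex examined had 3 that rose at 5 h and 4 at 12 h, and the 12 cytosolic genes outside it had 7 and 6. No difference between these subclasses was tested.

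Neither scaffold gene was called higher in any comparison. AIMP1 (chr4:106315544-106349226, plus strand), which tethers enzymes in the complex, read 107, 96.4 and 100.03 CPM at 0 h, 118, 105 and 109 CPM at 5 h and 103, 93.8 and 112 CPM at 12 h. The groups overlapped, with log2 fold changes of 0.12 ± 0.09 (SE), adjusted p = 0.279 at 5 h and 0.02 ± 0.09 (SE), adjusted p = 0.855 at 12 h. AIMP2 (chr7:6009245-6023834, plus strand), the scaffold on which the complex is known to depend, read 40.8, 30.5 and 31.8 CPM at 0 h, 39.99, 30.7 and 36.03 CPM at 5 h and 19.8, 25.6 and 29.02 CPM at 12 h. The 0 h and 5 h libraries overlapped, and the 12 h libraries were below all others. AIMP2 fell at 12 h, with a log2 fold change of -0.45 ± 0.15 (SE), adjusted p = 0.0153 against 0 h and -0.49 ± 0.15 (SE), adjusted p = 0.0138 against 5 h, and read 0.04 ± 0.14 (SE), adjusted p = 0.816 at 5 h. The first of these calls was lost without 0 h replicate 1 (-0.31) or 12 h replicate 1 (-0.34), and the second without 5 h replicate 1 (-0.40). EEF1E1, a further scaffold of the complex that is not counted among the 37 genes, was not called, with log2 fold changes of 0.00 at 5 h and -0.23 at 12 h.

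The genes whose windows held the strict C/EBP-ATF element had different calls over time. CARS1, IARS1 and MARS1 rose at both times, NARS1 rose at 5 h, AARS1 rose at 12 h, and TARS1 was not called against 0 h. GARS1, with the looser form only, rose at both times. The other cytosolic genes with windows held neither form. Among these, WARS1 and SARS1 rose at both times, FARSB at 5 h and EPRS1 at 12 h. FARSA fell at both times, and HARS1, KARS1, QARS1 and RARS1 were not called against 0 h. The genes with an E-box or NRF1 core also had different calls against 0 h. CARS2 fell and EARS2 and IARS1 rose at both times. MARS2 rose at 5 h and fell at 12 h, YARS2 rose at 5 h, and AIMP2 fell at 12 h. A relation between any of these motifs and change was not tested.

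Of 28 tested genes of the amino-acid response, 10 rose and 6 fell at 5 h, and 16 rose and 2 fell at 12 h, with a median log2 fold change of -0.007 at 5 h and 0.45 at 12 h. The shares of all genes called higher and lower were 24.9% and 24.8% at 5 h, and 26.3% and 24.8% at 12 h. DDIT3, which encodes the stress transcription factor CHOP, had a log2 fold change of 1.57 ± 0.15 (SE), adjusted p = 3.65e-08 at 5 h. BCAT1, a transaminase of branched-chain amino acids, rose by 1.36 at 5 h and 1.38 at 12 h. DDIT4, an inhibitor of mTORC1 signalling, fell, with values of -1.03 and -1.07. ATF4, picked out after its values were seen, read 241 ± 6.83 CPM at 0 h, 289.98 ± 10.4 CPM at 5 h and 336 ± 28.00 CPM at 12 h (SD, n = 3) and rose at both times (0.26 and 0.48). Among 10 tested genes of amino-acid sensing by GCN2 and eIF2, 4 rose and 1 fell at 5 h, and 5 rose and 2 fell at 12 h, and EIF2AK4, which encodes GCN2 itself, fell at both times (-0.48 and -0.30), though its call at 12 h was lost without 0 h replicate 2 (-0.23).

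Of 13 tested amino-acid transporters, 5 rose and 2 fell at 5 h, and 4 rose and 4 fell at 12 h. The counts at 12 h are near the shares of all genes, 26.3% higher and 24.8% lower. Those at 5 h stand beside 24.9% higher and 24.8% lower. SLC7A5 and SLC3A2, the chains of the large neutral amino-acid transporter, rose by 2.43 and 0.98 at 5 h and by 0.94 and 1.51 at 12 h. SLC1A4, a carrier of small neutral amino acids, fell, with values of -1.83 and -1.78. Of 8 tested genes for MYC and nuclear respiratory factors, 5 rose and 0 fell at 5 h, and 1 rose and 2 fell at 12 h. MYC read 211 ± 10.8 CPM at 0 h, 276 ± 13.7 CPM at 5 h and 90.3 ± 7.01 CPM at 12 h (SD, n = 3), above 0 h at 5 h and below it at 12 h (-1.22 ± 0.09 (SE), adjusted p = 7.1e-10).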

How the data were processed

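mRNA-seq of 9 Jurkat libraries in 3 groups was used. The deposited table holds whole-number counts per gene, made by the authors. The submitters' processing notes name cutadapt, RSEM, DESeq2 and the build GRCh38.p13, with no role or version. The sources used here give no aligner, annotation release or strand setting. Since RSEM estimates counts, rounding of estimates is possible. The authors also deposited log2 values for the 12692 genes counted in all 9 libraries, used here only in an alternative.

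All 9 libraries entered 1 fit in edgeR 4.0.16 (R 4.3.3), with a coefficient per group, TMM scaling and the filterByExpr filter, which left 12036 genes. The quasi-likelihood test was two-sided, with Benjamini-Hochberg adjustment over those genes and calls under 0.05. Common dispersion, as a coefficient of variation, came to 0.0887. CPM are per TMM-scaled total of tested genes. Means carry the SD and log2 fold changes the SE. Coordinates and exon lengths come from GENCODE 29 (GRCh38), and promoter windows from RefSeq tables (GRCh38.p14). Precision follows from library totals of 4222258 to 9359187 counts.

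The genes and lists were chosen with earlier results of these data known. Values per library are given for the called members with the 6 largest changes at each time against 0 h and the 3 largest between 5 h and 12 h, every member past 2-fold, the cytosolic and mitochondrial pairs of the same letter code that differ most and least at 12 h, HARS1 with HARS2, FARSA with FARSB, GARS1, KARS1, AIMP1 and AIMP2. Context lists are given by counts, with up to 3 called genes in each direction. Alternatives were DESeq2 1.42.0, RLE factors, library totals alone, no filter, the 6 libraries of each comparison alone, a replicate block, leaving out each library, and limma 3.58.1 on the log2 values. Protein sequences, ribosome profiling and small RNA were not used here.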

Additional observations from a re-analysis of the deposited data

Results flagged for a closer look

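For 14 of the 37 genes, the effect against 0 h differed between 12 h and 5 h, by the edgeR test of 12 h against 5 h at an adjusted p under 0.05. In that comparison 18.1% of all genes tested were called higher and 18.0% lower, so the share called among the 37 genes was near that of all genes. Both effects share the 0 h libraries. The log2 effect at 12 h minus that at 5 h was lower for 10 genes. It was -0.82 for MARS2, -0.71 for RARS2 and -0.68 for WARS2, the mitochondrial methionine, arginine and tryptophan enzymes, and -0.38 for YARS2. The scaffold AIMP2 had -0.49. Among the cytosolic genes it was -0.40 for FARSB, -0.39 for RARS1, -0.27 for NARS1, -0.24 for GARS1 and -0.23 for TARS1. The difference was higher for AARS1 (0.58), LARS2 (0.35), YARS1 (0.29) and CARS1 (0.27). Calls of AARS1, MARS2, RARS2, FARSB and RARS1 held without any 1 of the 6 libraries, and those of the other 9 genes were each lost without at least 1 library. Groups of 3 libraries are too small for the test of a single outlying sample.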

How the results depend on the processing

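With library totals alone, 2 cytosolic genes were lower at 5 h and 2 at 12 h, and 3 mitochondrial genes were lower at 5 h. All genes lower then numbered 3899 of 12036 at each time. Each of these lower counts was a smaller share of its class than that, and no test was made. Mitochondrial genes higher numbered 4 at 5 h and 2 at 12 h on that scale. Medians were then 0.29 (cytosolic), 0.12 (mitochondrial) and -0.12 (all genes) at 5 h, and 0.16 (cytosolic) and -0.11 (all genes) at 12 h. With only the 6 libraries compared, mitochondrial genes lower at 12 h numbered 2, and cytosolic genes lower at 12 h against 5 h numbered 3, as they did with no filter. With the mean of log2(CPM + 1), the change of the class ratio was 0.12 at 5 h and 0.11 from 5 h to 12 h. With the longest transcript, the medians per length were 49.3 and 11.3 CPM per kb, their ratio 4.37, and that of FARSA to FARSB 2.12. RLE factors left the calls of all 37 genes as they were. DESeq2 and limma each shared 18 of 19 calls at 5 h, 20 of 22 at 12 h and 14 of 14 for 12 h against 5 h, and no filter 18, 20 and 12. The cause of these changes was not tested.

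Leaving out 1 library at a time gave -0.0124 to 0.00612 for the median of all genes at 5 h. Mitochondrial genes at 12 h against 0 h ranged from 3 to 6 higher and from 2 to 4 lower. At 12 h against 5 h, cytosolic genes ranged from 1 to 4 higher and 2 to 5 lower, and mitochondrial genes from 0 to 2 higher. Values near 0 that were not called changed sign. These were HARS1 (-0.0606 to 0.0535 at 5 h, -0.111 to 0.0262 at 12 h, -0.105 to 0.0435 for 12 h against 5 h), AIMP2 at 5 h (-0.0489 to 0.179), AIMP1 at 12 h (-0.0426 to 0.0925), and for 12 h against 5 h MARS1 (-0.0467 to 0.0506), FARSA (-0.105 to 0.0835) and WARS1 (-0.0409 to 0.0895). Library totals alone also turned HARS2 (-0.0277) and AIMP2 (-0.0763) at 5 h, AIMP1 at 12 h (-0.0854) and MARS1 for 12 h against 5 h (0.0103), and MARS1 was 0.00656 with only the 6 libraries compared.

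Whether replicate numbers pair the libraries was not tested. Correlations of same-numbered libraries were 0.0425, -0.0939 and 0.0638 for 5 h and 0 h, -0.118, -0.146 and -0.172 for 12 h and 0 h, and 0.231, 0.178 and 0.0279 for 12 h and 5 h. Libraries of different number ran from -0.192 to 0.159, from -0.082 to 0.231 and from -0.280 to 0.147 in the same order. Only for 12 h and 5 h were all same-numbered values above 0. With the replicate block, 19 of 19 calls at 5 h, 20 of 22 at 12 h and 13 of 14 for 12 h against 5 h were shared. The calls lost were IARS2 and NARS2 at 12 h and TARS1 for 12 h against 5 h, where IARS1 was gained. All genes then numbered 2989 higher and 2992 lower at 5 h, 3149 and 3027 at 12 h, and 2156 and 2129 for 12 h against 5 h. Depth limits WARS2, FARS2 and PARS2 most, with minima of 34, 31 and 33 counts.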

Other observations

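Over all genes tested, 24.9% were called higher and 24.8% lower at 5 h, and 26.3% and 24.8% at 12 h. Of 7 genes listed as cytosolic elongation factors, 3 rose and 0 fell at 5 h, and 5 rose and 1 fell at 12 h. The list includes EEF1E1, the uncalled scaffold named above. At 5 h the count higher was 1 without 0 h replicate 2 or 5 h replicate 2, and with library totals alone. At 12 h the count lower was 0 without 12 h replicate 1 or without any 1 of the 0 h libraries. EEF1A1, which carries aminoacyl-tRNA to the ribosome, rose by 0.58 at 5 h and 0.58 at 12 h on the log2 scale, and EEF2, the translocation factor, rose by 0.70 at 12 h. Of 23 genes of tRNA quality control and maturation, 6 rose and 4 fell at 5 h, and 4 rose and 8 fell at 12 h. The count lower at 5 h was 2 without 0 h replicate 1 or 2 or 5 h replicate 1 or 3, and that at 12 h was 5 without 0 h replicate 2 or 12 h replicate 2. ELAC1, a tRNA-processing nuclease, fell, with log2 values of -0.67 and -1.55. Its call at 5 h was lost without 0 h replicate 1 or 2 or 5 h replicate 1, and by DESeq2.

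Of 78 mitochondrial ribosomal protein genes, 13 rose and 18 fell at 5 h, and 10 rose and 19 fell at 12 h, with medians of -0.07 and -0.08. The count higher at 5 h was 8 without 0 h replicate 2, 7 without 0 h replicate 3 and 6 without 5 h replicate 1, and that at 12 h was 5 without 12 h replicate 2. With library totals alone it was 3 at each time. Of 15 mitochondrial translation factors, 4 rose and 2 fell at 5 h, and 3 rose and 1 fell at 12 h. The count lower at 5 h was 0 without 0 h replicate 3 and 1 without any 1 of the 5 h libraries, and that at 12 h was 2 without 12 h replicate 3. With library totals alone 4 were lower at each time, beside 3899 of 12036 genes. MRRF, the ribosome recycling factor, rose by 0.82 and 0.77, QRSL1, a subunit of the amidotransferase that makes glutaminyl-tRNA in the organelle, rose by 0.66 and 0.55, and TSFM, the exchange factor of mitochondrial elongation factor Tu, fell, with values of -0.35 and -0.76. The call of TSFM at 5 h was lost without 0 h replicate 2 or 3, without any 1 of the 5 h libraries, by DESeq2 and by limma.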
